A study of Sus scrofa with 4 samples.

Results

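Tubulins, subunits of dynein and dynactin, kinesins and the proteins that work with them on microtubules were followed in the transcriptome of porcine oocytes at the metaphase II (M II) stage. The genes were chosen by their symbols, with one pattern covering alpha to epsilon tubulin, dynein, dynactin, kinesin, end-binding, stathmin, katanin and related names. The pattern took 23 of the 4381 gene symbols in the table, and all 23 had at least 1 count in some library. Counts were high enough for the test in 20 of them, out of 2387 genes tested in all. In the porcine RefSeq annotation the same pattern takes 125 genes, of which 24 have a curated transcript, and the 23 members are among those 24. Other genes of these families, such as DYNLL2, NDE1 and KIF5B, were not analysed here.

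Microtubules are polymers of alpha and beta tubulin dimers. Cytoplasmic dynein, helped by the dynactin complex and by regulators such as LIS1 and NDEL1, carries cargo toward their minus ends, while most kinesins move toward the plus ends. Mammalian oocytes build the meiotic spindle without centrioles, and dynein and several kinesins gather, sort and focus its microtubules.

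Cumulus-oocyte complexes from abattoir ovaries were matured in vitro to the M II stage, without the inhibitor in the control group and with SIRT6-IN-1 in the SIRT6-inhibited group. SIRT6-IN-1 is a cell-permeable compound that inhibits SIRT6, a nuclear deacetylase of the sirtuin family. The labels name lysis and Smart-seq2 amplification where the study's methods name column extraction of RNA, and both name a NEBNext Ultra kit with random priming for the libraries, so which way the RNA was prepared is unclear. Sequencing covered 2 control and 2 SIRT6-inhibited libraries. The study's methods count the oocytes by group and do not say how many went into each library. The inhibitor was dissolved in dimethyl sulfoxide (DMSO), and whether the control medium held DMSO is not stated. The question put to these genes was whether their transcripts differed between the groups, and how DYNLL1, DCTN4, NDEL1 and KTN1 lay against the rest.

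The totals over the listed genes were 4646129 counts in control library 1, 3405960 in control library 2, 3239200 in SIRT6-inhibited library 1 and 4972602 in SIRT6-inhibited library 2. A gene at 3 counts then stands at 0.646, 0.881, 0.926 and 0.603 CPM, the count relative to the library total, in that order, and lower levels could not be told from 0. Such limits and the intervals given here reflect counting error alone, since reads copied by amplification are not separate molecules. Control library 2 stood apart in the number of genes with a count, which was 2689 there and 2411, 2277 and 2320 in control library 1 and SIRT6-inhibited libraries 1 and 2. It alone had at least 10 counts, with 0 elsewhere, for 90 genes, against 51, 38 and 35 in those libraries.

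The oocyte label was checked against marker genes. All 13 oocyte markers in the table had counts in each library, with summed levels of 78369 and 79893 normalized CPM (counts relative to a total scaled by edgeR's trimmed mean of M-values, TMM) in control and 77632 and 78955 in SIRT6-inhibited oocytes. KPNA7 had the most counts of them. Of these 13 markers, 7 had a fold change below 0, beside 52.8% of all tested genes, and 6 above 0. Their median log2 fold change was -0.012, and the groups overlapped for 11. Non-overlap thus held for 15.4% of these markers, beside 40.1% of all tested genes. GDF9 and ZP2, named after their values were seen, were lower at an unadjusted p under 0.05 in edgeR's quasi-likelihood test. Among all tested genes, 5.99% were lower at that level. The groups of GDF9 and ZP2 did not overlap, and neither gene passed adjustment. GDF9 had 1322 and 2986 normalized CPM in control and 977 and 393 in SIRT6-inhibited libraries, and control library 2 was the highest. Its log2 fold change was -1.65, with a standard error (SE) of 0.50, and was -0.95 without control library 2. ZP2 had 3707 and 4327 normalized CPM in control and 3417 and 2784 in SIRT6-inhibited libraries, and its log2 fold change was -0.37 (SE 0.14). The unadjusted p was above 0.05 for GDF9 without control library 2, and for ZP2 without control library 2 (-0.26) or SIRT6-inhibited library 2 (-0.24). In DESeq2's Wald test the GDF9 fold change was as large (-1.63) and the unadjusted p just above 0.05. Among other settings of edgeR's test with all libraries, GDF9 passed adjustment without the filter on low counts, and with the replicate number as a block, also when crossed. Its log2 fold change was -2.46 and -1.14 without SIRT6-inhibited libraries 1 and 2. The summed level of the oocyte markers does not show these differences. The 18 markers of cumulus or granulosa cells summed to 200.5 and 221 normalized CPM in control and to 88.5 and 209.8 in SIRT6-inhibited libraries 1 and 2, led by VCAN. FSHR, LHCGR, TNFAIP6, AMH and AREG were at 0 in all 4 libraries. The 6 blood and stroma markers summed to between 31.9 and 43.6 normalized CPM, led by PECAM1, with HBB, CD14 and COL3A1 at 0. SIRT6-inhibited library 1 thus had the lowest sum of cumulus markers, and VCAN was the largest single part of that sum in each library. Without VCAN, a choice made after seeing the data, the other 17 markers summed to 117.8 and 84.7 normalized CPM in control and to 49.7 and 67.6 in SIRT6-inhibited libraries, so both SIRT6-inhibited libraries were lower. Of the 8 cumulus or granulosa markers with enough counts for the test, 7 had a fold change below 0, where 52.8% of all tested genes were below 0. INHBA, PTGS2 and SERPINE2 were lower without overlap of the groups, beside 22.2% of all tested genes. CYP11A1 was higher without overlap, beside 17.9%. An unadjusted p under 0.05 was found for 0 of the 8 in edgeR's test (9.05% of all tested genes) and DESeq2's Wald test (9.93%). In limma-voom (9.68%) 1, SERPINE2, had one. The part of these markers in the results on microtubule genes was not tested.

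The members together took 1.30% of the counts of control library 1 (exact 95% binomial interval 1.29% to 1.31%) and 1.37% of control library 2 (1.36% to 1.38%). In SIRT6-inhibited libraries 1 and 2 they took 1.26% (1.24% to 1.27%) and 1.17% (1.16% to 1.18%). Both SIRT6-inhibited libraries thus lay below both control libraries. In such bulk libraries, fewer cells of a type and less RNA per cell cannot be told apart. The labels do not say that the libraries of a group came from separate cultures or animals, so the p-values measure only the spread between these 4 samples, which may be technical.

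Among the 20 tested members, 11 had a fitted fold change below 0 and 9 above 0, comparing SIRT6-inhibited with control oocytes. An unadjusted p under 0.05 in edgeR's quasi-likelihood test was found for 3 members. Lower at that level were 2 members, DYNLL1 and KTN1, beside 5.99% of all tested genes, and higher was 1 member, DCTN4, beside 3.06%. Counting both directions, the background was 9.05% of the 2387 tested genes, or 216 genes. With Benjamini-Hochberg adjustment over all tested genes, edgeR's test left 0 of the 20 members and 0 of the 2387 genes (0%) under 0.05. Other tools called more or as few, with 2 members and 37 genes in DESeq2's Wald test and 0 members and 0 genes in limma-voom. Control and SIRT6-inhibited libraries did not overlap for 6 members that were lower (background 22.2%) and 3 that were higher (background 17.9%). Non-overlap thus held for 45% of the members against 40.1% of all tested genes, which is close to the background. An exact permutation test of 2 against 2 libraries cannot give a p below 0.333 and was therefore not used for single genes.

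The median log2 fold change of the tested members was -0.11, and that of all tested genes was -0.04. Without control library 2 the members' median was 0.00069. Without SIRT6-inhibited library 1, the library with the lowest sum of cumulus markers, it was -0.18 over the same 20 members, and without control library 1 it was -0.048. The fit without SIRT6-inhibited library 1 leaves 1 library in the SIRT6-inhibited group. Its log2 fold changes were 0.58 for DCTN4, -0.69 for KTN1, -1.60 for STMN1 and -2.69 for DYNLL1. Taken over single pairs of libraries, the members' median log2 ratio was 0.15 and 0.10 for SIRT6-inhibited library 1 against control libraries 1 and 2, and -0.14 and -0.21 for SIRT6-inhibited library 2. By this median over single pairs the members had no direction shared by both SIRT6-inhibited libraries, whereas their summed share of the counts was lower in both. Without SIRT6-inhibited library 2 the fitted median over the same 20 members was -0.099. Against both controls, the fitted median was thus below 0 for each SIRT6-inhibited library. The median of all tested genes was below 0 in these fits too, at -0.092 without SIRT6-inhibited library 1 and -0.077 without SIRT6-inhibited library 2. Libraries of a group differed by a median of 1.14-fold in control and 1.24-fold in SIRT6-inhibited oocytes over the tested members, where all tested genes gave 1.30-fold and 1.29-fold.

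**Figure D1:**
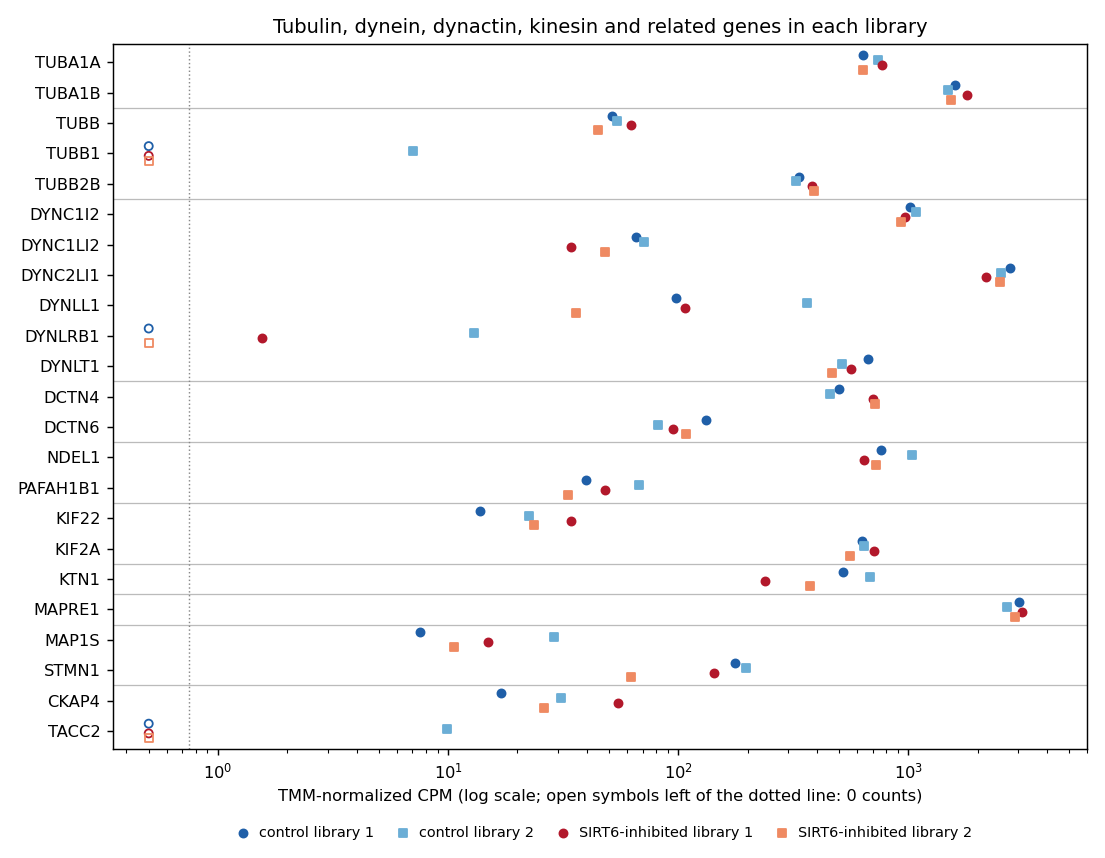
Level of each of the 23 members in every library, as TMM-normalized CPM on a log axis, grouped by role, with open symbols for 0 counts. DCTN4 is higher and KTN1 lower in both SIRT6-inhibited libraries, while DYNLL1 is high in control library 2 alone.

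Of the 4 tested tubulin genes, 0 had an unadjusted p under 0.05 in edgeR's quasi-likelihood test, DESeq2's Wald test or limma-voom. Among all tested genes the shares were 9.05%, 9.93% and 9.68% in that order. TUBA1B, an alpha tubulin, had 1595 and 1487 normalized CPM in control against 1789 and 1538 in SIRT6-inhibited oocytes. These ranges overlapped, and the log2 fold change was 0.11 (SE 0.12, edgeR adjusted p = 0.956). TUBA1A had 636 and 736 normalized CPM in control and 772 and 635 in SIRT6-inhibited libraries, again with overlap and a log2 fold change of 0.04 (SE 0.15). The alpha tubulin genes are near-identical neighbours on chromosome 5, with 32438 bp between the end of TUBA1B and the start of TUBA1A, and RefSeq places the locus LOC100127131 over both. How reads shared by such copies were counted is not stated, so the split between them is uncertain. The ratio of TUBA1B to TUBA1A counts within a library was 2.51 and 2.02 in control and 2.32 and 2.42 in SIRT6-inhibited libraries, so the SIRT6-inhibited values fell between the control values. Their summed level, which does not depend on that split, was 2231 and 2223 normalized CPM in control and 2561 and 2173 in SIRT6-inhibited libraries, which overlap.

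Of the beta tubulins, TUBB2B had 334 and 323 normalized CPM in control and 379 and 391 in SIRT6-inhibited libraries. Both SIRT6-inhibited libraries were above both controls, by a log2 fold change of 0.23 (SE 0.15, edgeR adjusted p = 0.791). TUBB, which encodes the widely expressed class I beta tubulin, had 51.8 and 54.0 normalized CPM in control and 62.4 and 44.8 in SIRT6-inhibited libraries, so the SIRT6-inhibited values lay on either side of the control values. TUBB1, a beta tubulin best known from platelets, had 25 counts in control library 2 and 0 in each of the other libraries, and it was not tested. Reads shared among the beta tubulins make these counts uncertain too. Their summed level, which does not depend on how reads were split among these 3 genes, was 385 and 384 normalized CPM in control and 442 and 435 in SIRT6-inhibited libraries, so it was higher in both SIRT6-inhibited libraries, and TUBB2B made up most of it. The sum was not tested. All 4 tested tubulins had a fitted log2 fold change above 0, between 0.02 and 0.23, but only TUBB2B kept that sign in every alternative. Without SIRT6-inhibited library 1, TUBA1A (-0.12), TUBA1B (-0.0071) and TUBB (-0.25) were below 0. TUBA1A (-0.074) and TUBB (-0.021) were also below 0 without control library 1, and so were both (-0.023 and -0.038) when counts were scaled by library totals only. In limma-voom TUBB alone was below 0 (-0.044). Alpha over beta tubulin counts, summed, gave ratios of 5.79 and 5.79 in control and 5.80 and 4.99 in SIRT6-inhibited libraries, with the lowest ratio in SIRT6-inhibited library 2.

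Dynein subunits were lower in the fitted fold change for 5 of 5 tested genes, where 52.8% of all tested genes were lower. Of these 5, 1 gene, DYNLL1, had an unadjusted p under 0.05 in edgeR's test. Among all tested genes, 5.99% were lower at that level. The direction of these 5 genes was the same under every scaling, filter, test and left-out library tried, although DYNLT1 was close to 0 (-0.0082) without control library 1. Their log2 fold changes ran from -1.70 to -0.15 with a median of -0.20. Over the same 5 genes that median was -0.20 and -0.38 without control libraries 1 and 2. It was -0.35 and -0.29 without SIRT6-inhibited libraries 1 and 2. The groups did not overlap for 3 of the 5, beside 22.2% of all tested genes that were lower without overlap. The group of dynein genes as such was not tested. DYNC1I2, an intermediate chain of cytoplasmic dynein that binds dynactin, had 1018 and 1083 normalized CPM in control and 965 and 933 in SIRT6-inhibited libraries. Every SIRT6-inhibited value was below every control value, but the difference was small, with a log2 fold change of -0.15 (SE 0.12, edgeR adjusted p = 0.873). DYNC1LI2, a light intermediate chain that links dynein to cargo adaptors, had 65.6 and 71.2 normalized CPM in control and 34.2 and 47.9 in SIRT6-inhibited libraries. The groups did not overlap, and the log2 fold change was -0.74 (SE 0.39, edgeR adjusted p = 0.648). DYNC2LI1, the light intermediate chain of the dynein of cilia, had 2769 and 2515 normalized CPM in control and 2166 and 2496 in SIRT6-inhibited libraries. Control library 2 and SIRT6-inhibited library 2 were nearly level, and the log2 fold change was -0.18 (SE 0.12, edgeR adjusted p = 0.772). It was -0.12 without control library 1, -0.086 without SIRT6-inhibited library 1 and -0.29 without SIRT6-inhibited library 2, and its unadjusted p was under 0.05 with library totals only. DYNC2LI1 overlaps ABCG5 in RefSeq, and since strand and counting are not stated, reads of the overlap cannot be told apart.

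DYNLL1 encodes LC8, a light chain of dynein that also binds many other proteins, and lies at chr14:40455954-40458352 on the RefSeq assembly Sscrofa11.1. It had counts of 452 and 1289 in control libraries 1 and 2, against 343 and 172 in the SIRT6-inhibited pair. Normalized, these were 97.5, 363, 106 and 35.8 CPM. Control library 2 was the highest and SIRT6-inhibited library 2 the lowest, while control library 1 lay just below SIRT6-inhibited library 1, so the groups overlapped. The control libraries differed 3.72-fold, a spread at least as large as that of 92.9% of the tested genes with counts in both, and the SIRT6-inhibited libraries differed 2.97-fold. The log2 fold change of -1.70 (SE 0.71, edgeR adjusted p = 0.546) had the largest size among the tested members and also the largest SE but 1, that of MAP1S. The unadjusted p of DYNLL1 was 0.0499, just under 0.05. The difference rested on control library 2, since without that library the log2 fold change was -0.46 and the unadjusted p was above 0.05. It was -2.69 without SIRT6-inhibited library 1 and -1.11 without SIRT6-inhibited library 2. With all 4 libraries, DYNLL1 passed adjustment only in edgeR's test without a filter on low counts. Over the alternatives with all 4 libraries (edgeR, DESeq2 and limma-voom) its adjusted p ran from 4.50e-06 to 0.546. Within a library, DYNLL1 counts relative to DYNC1I2 counts were 0.0958 and 0.335 in control and 0.110 and 0.0384 in SIRT6-inhibited libraries, and the same pair of libraries was again out of order. Short genes of this kind can share reads with processed copies elsewhere in a genome, so the count is uncertain.

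The remaining dynein light chains were DYNLT1 and DYNLRB1. DYNLT1, a light chain of the Tctex family, had 667 and 514 normalized CPM in control and 562 and 466 in SIRT6-inhibited libraries. The groups overlapped, with a log2 fold change of -0.20 (SE 0.18). Each library moved that value, to -0.0082 and -0.38 without control libraries 1 and 2, and to -0.35 and -0.074 without SIRT6-inhibited libraries 1 and 2. DYNLRB1, a light chain of the roadblock family, had 46 counts in control library 2, 5 in SIRT6-inhibited library 1 and 0 in the other libraries, and it was too low to be tested. Summed over the 6 dynein subunits, levels were 4618 and 4559 normalized CPM in control and 3835 and 3979 in SIRT6-inhibited libraries, so the sum was lower in both SIRT6-inhibited libraries. DYNC2LI1 contributed the most counts to that sum.

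**Figure D2:**
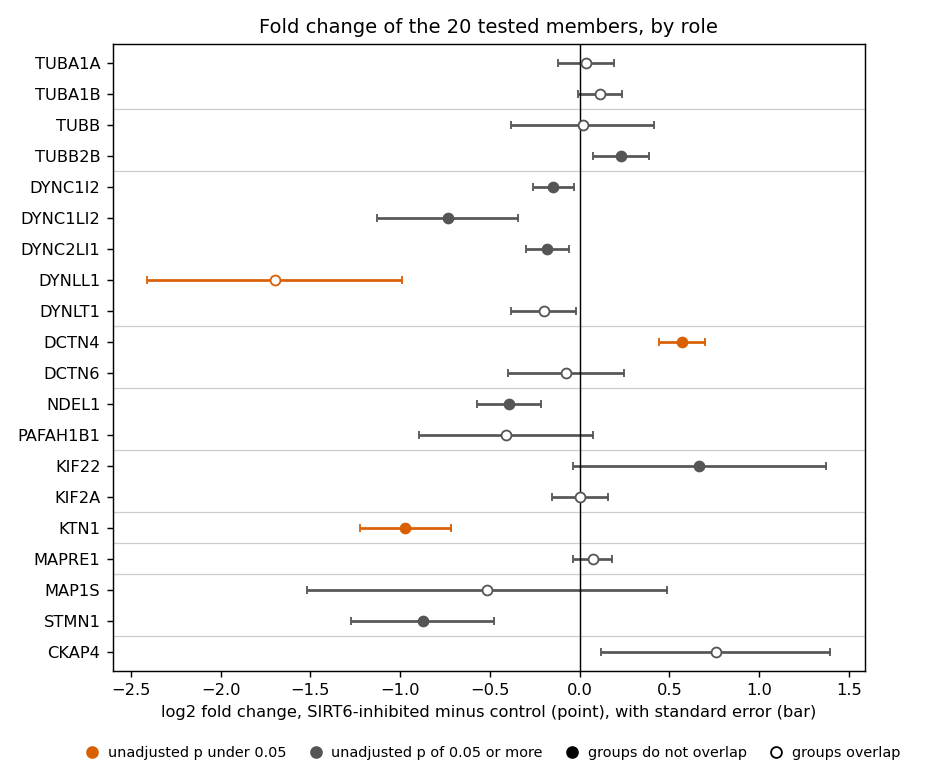
Log2 fold change of the 20 tested members, SIRT6-inhibited minus control, with bars of 1 SE, in order of role. Orange marks an unadjusted p under 0.05 and filled points mark groups that do not overlap, so DYNLL1 is the only orange point whose groups overlap.

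Dynactin, the complex that couples dynein to its cargo, was represented by DCTN4 and DCTN6, which both belong to its pointed end. DCTN4 lies at chr2:151681001-151713923 (Sscrofa11.1) and had 2306 and 1626 counts in control and 2258 and 3445 counts in SIRT6-inhibited libraries. Normalized, the values were 498 and 457 CPM in control and 701 and 717 CPM in SIRT6-inhibited libraries. Libraries of a group were close to each other, 1.09-fold apart in control and 1.02-fold in SIRT6-inhibited oocytes, and both SIRT6-inhibited libraries were above both controls. The means were 478 ± 28.4 and 709 ± 11.3 normalized CPM (SD, n = 2 each). DCTN4 was thus higher by a log2 fold change of 0.57 (SE 0.13), in each of the 4 pairs of libraries, but it did not pass adjustment in edgeR's quasi-likelihood test (adjusted p = 0.460). With any 1 library left out the log2 fold change was between 0.51 and 0.62. In DESeq2's Wald test its adjusted p = 0.0491 was under 0.05, within a range of 0.0491 to 0.950 over all alternatives.

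DCTN6 did not share that pattern. It had 132 and 81.3 normalized CPM in control and 95.3 and 108 in SIRT6-inhibited libraries, so both SIRT6-inhibited values lay between the controls, and the log2 fold change was -0.08 (SE 0.32, edgeR adjusted p = 0.992). Without control libraries 1 and 2 in turn it was 0.31 and -0.39, and without SIRT6-inhibited libraries 1 and 2 it was 0.0037 and -0.17. Counts of DCTN4 relative to DCTN6 were 3.76 and 5.63 in control and 7.36 and 6.66 in SIRT6-inhibited libraries. Relative to the dynein chain DYNC1I2, DCTN4 stood at 0.489 and 0.422 in control and at 0.726 and 0.769 in SIRT6-inhibited libraries. Neither ratio depends on how libraries are scaled, and in both the SIRT6-inhibited libraries were the higher ones. The partners in these ratios were picked after the values were seen.

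The regulators of dynein were NDEL1, which binds both dynein and LIS1, and PAFAH1B1, which encodes LIS1. NDEL1 lies at chr12:53553897-53640470 (Sscrofa11.1) and overlaps RNF222 there. It had 3518 and 3674 counts in control and 2071 and 3463 counts in SIRT6-inhibited libraries, or 759 and 1034 against 643 and 721 normalized CPM. The groups did not overlap, but control library 1 and SIRT6-inhibited library 2 were close, and control library 2 was the highest. The means were 896 ± 194 and 682 ± 55.0 normalized CPM (SD, n = 2 each), with a log2 fold change of -0.39 (SE 0.18, edgeR adjusted p = 0.570). Its unadjusted p was above 0.05 here and below it in 8 of 13 other settings. Without control library 2 the log2 fold change was -0.16, and without control library 1 it was -0.61. PAFAH1B1 had 39.7 and 67.8 normalized CPM in control and 47.8 and 33.1 in SIRT6-inhibited libraries, with overlapping groups and a log2 fold change of -0.41 (SE 0.48). That value was -0.75 and 0.02 without control libraries 1 and 2, and -0.70 and -0.17 without SIRT6-inhibited libraries 1 and 2. NDEL1 counts relative to PAFAH1B1 counts were 19.1 and 15.2 in control and 13.5 and 21.8 in SIRT6-inhibited libraries, so no shift between these partners was seen.

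On the kinesin side, KTN1 encodes kinectin, a protein of the endoplasmic reticulum membrane that binds kinesin. It lies at chr1:184881555-184990936 (Sscrofa11.1) and had 2414 and 2432 counts in control and 766 and 1804 counts in SIRT6-inhibited libraries. Normalized, these were 521 and 684 CPM in control and 238 and 375 CPM in SIRT6-inhibited libraries. Both SIRT6-inhibited libraries were below both controls, and SIRT6-inhibited library 1 was the lowest. The means were 603 ± 115 and 307 ± 97.3 normalized CPM (SD, n = 2 each), and the log2 fold change was -0.97 (SE 0.25). KTN1 did not pass adjustment in edgeR's quasi-likelihood test (adjusted p = 0.460), but it kept an unadjusted p under 0.05 in all 13 other settings. Its log2 fold change lay between -1.34, without SIRT6-inhibited library 2, and -0.69, without SIRT6-inhibited library 1. It passed adjustment in 4 of those settings, and over all of them (edgeR, DESeq2 and limma-voom) the adjusted p ran from 9.29e-05 to 0.950. Relative to MAPRE1 counts in the same library, KTN1 stood at 0.172 and 0.254 in control and at 0.0763 and 0.129 in SIRT6-inhibited libraries. These values did not overlap. MAPRE1 itself lay between 2696 and 3118 normalized CPM, so the ratio largely repeats the level of KTN1 and is not separate support.

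The kinesin motors showed less. KIF2A, a kinesin that takes microtubules apart from their ends, had 626 and 641 normalized CPM in control and 712 and 559 in SIRT6-inhibited libraries. The control values lay between the SIRT6-inhibited values, and the log2 fold change was 0.0031 (SE 0.16), which ran from -0.19 without SIRT6-inhibited library 1 to 0.17 without SIRT6-inhibited library 2. KIF22, a kinesin that binds chromosome arms, had 13.8 and 22.5 normalized CPM in control and 34.2 and 23.5 in SIRT6-inhibited libraries. The groups were separated by the small gap between 22.5 and 23.5, with a log2 fold change of 0.67 (SE 0.70, edgeR adjusted p = 0.956). It was 0.35 and 1.06 without control libraries 1 and 2, and 0.37 without SIRT6-inhibited library 1. MAPRE1, which encodes the plus-end tracking protein EB1, had 3032 and 2696 normalized CPM in control and 3118 and 2906 in SIRT6-inhibited libraries. These overlapped, and the log2 fold change was 0.07 (SE 0.11), which ran from -0.014 without control library 2 to 0.15 without control library 1.

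STMN1 encodes stathmin, which binds free tubulin dimers and promotes disassembly of microtubules. It had 817 and 703 counts in control and 459 and 298 counts in SIRT6-inhibited libraries, or 176 and 198 against 143 and 62.0 normalized CPM. The controls were close, both SIRT6-inhibited libraries were lower, and these differed 2.30-fold from each other. The log2 fold change was -0.88 (SE 0.40, edgeR adjusted p = 0.570), and it moved to -0.39 without SIRT6-inhibited library 2 and to -1.60 without SIRT6-inhibited library 1. The fit without SIRT6-inhibited library 1 rests on SIRT6-inhibited library 2 alone, where STMN1 was lowest, so it leaves out the spread of that group. In the alternatives with all 4 libraries (edgeR, DESeq2 and limma-voom) the adjusted p ran from 0.119 to 0.567. The lowest was edgeR's without a filter on low counts. Relative to the summed alpha tubulin counts, STMN1 stood at 0.0790 and 0.0890 in control and at 0.0556 and 0.0285 in SIRT6-inhibited libraries, so stathmin counts were lower against those of tubulin in both SIRT6-inhibited libraries.

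The other microtubule-associated members had few counts. MAP1S, a microtubule-associated protein, had 35 and 103 counts in control and 48 and 51 counts in SIRT6-inhibited libraries, with overlap and a log2 fold change of -0.52 (SE 1.00) that was 0.75 without control library 2 and -1.19 without control library 1. CKAP4, a membrane protein that links the endoplasmic reticulum to microtubules, had 79 and 110 counts in control and 177 and 126 counts in SIRT6-inhibited libraries. After normalization its groups overlapped, at 17.0 and 30.9 against 55.0 and 26.2 CPM, with a log2 fold change of 0.76 (SE 0.64). It was 0.38 and 1.24 without control libraries 1 and 2, and 0.13 and 1.20 without SIRT6-inhibited libraries 1 and 2. TACC2, a coiled-coil protein of the centrosome, had 35 counts in control library 2 and 0 elsewhere, and it was not tested. TACC2 and TUBB1 thus had counts in control library 2 alone, the library with the most detected genes.

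Set against the family, the 4 genes named at the outset behaved differently from one another. As a share of all member counts, DCTN4 took 3.81% and 3.49% in control and 5.55% and 5.91% in SIRT6-inhibited libraries. KTN1 took 3.99% and 5.22% in control and 1.88% and 3.10% in SIRT6-inhibited libraries. For these 2 genes the groups did not overlap. NDEL1 took 5.81% and 7.88% in control and 5.09% and 5.94% in SIRT6-inhibited libraries, so with the family as the reference its groups overlapped. DYNLL1 took 0.747% and 2.77% in control and 0.843% and 0.295% in SIRT6-inhibited libraries, with overlap as before. The exact 95% binomial intervals of DYNLL1 in control library 1 (0.680% to 0.819%) and SIRT6-inhibited library 1 (0.756% to 0.936%) overlapped too.

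**Figure D3:**
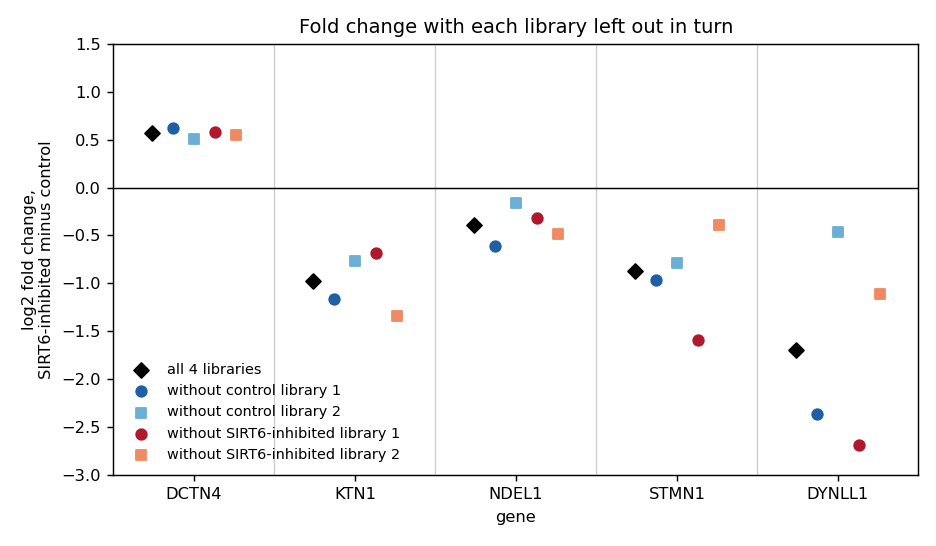
Log2 fold change, SIRT6-inhibited minus control, of DCTN4, KTN1, NDEL1, STMN1 and DYNLL1 with all 4 libraries (diamonds) and after leaving out each library. DCTN4 stays between 0.51 and 0.62, while DYNLL1 moves from -2.69 to -0.46.

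**Figure D4:**
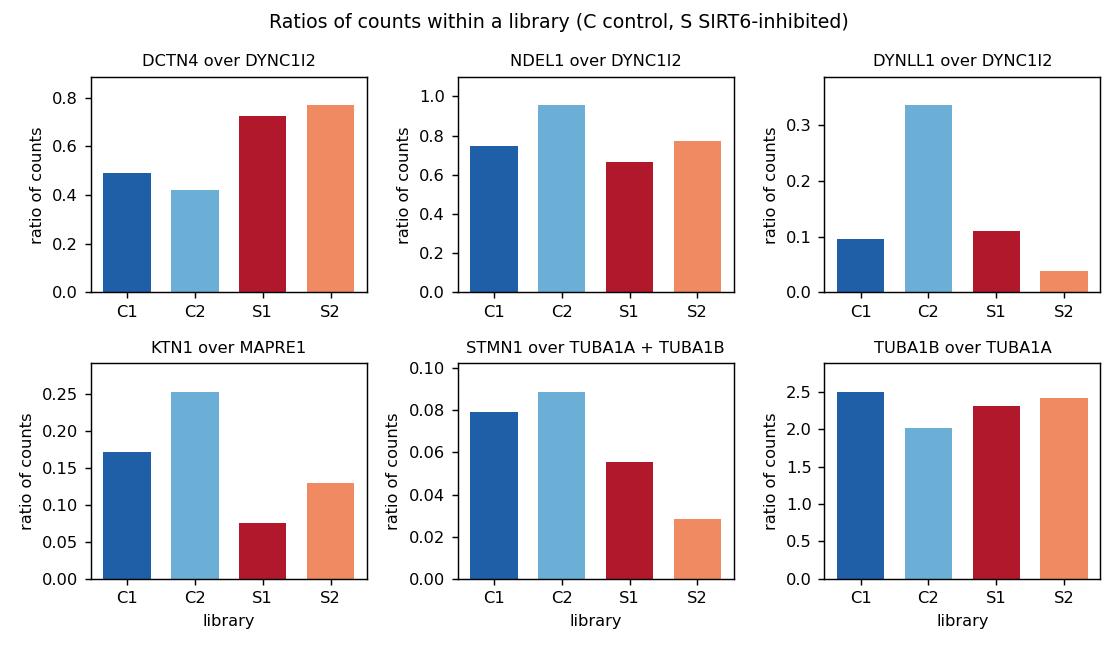
Ratios of the counts of a pair of genes, or of STMN1 and summed alpha tubulin, within each library, with bars from 0 for control (C1, C2) and SIRT6-inhibited (S1, S2) libraries. DCTN4 over DYNC1I2 is higher in both SIRT6-inhibited libraries and KTN1 over MAPRE1 is lower in both, while TUBA1B over TUBA1A stays between 2.02 and 2.51.

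Among the 2387 tested genes, ordered from the lowest log2 fold change to the highest, DYNLL1 ranked 176th, KTN1 353rd, STMN1 393rd, NDEL1 727th and DCTN4 2093rd. The absolute log2 fold change of KTN1 was at least that of 78.3% of the tested genes, and that of DCTN4 at least that of 63.6%.

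**Figure D5:**
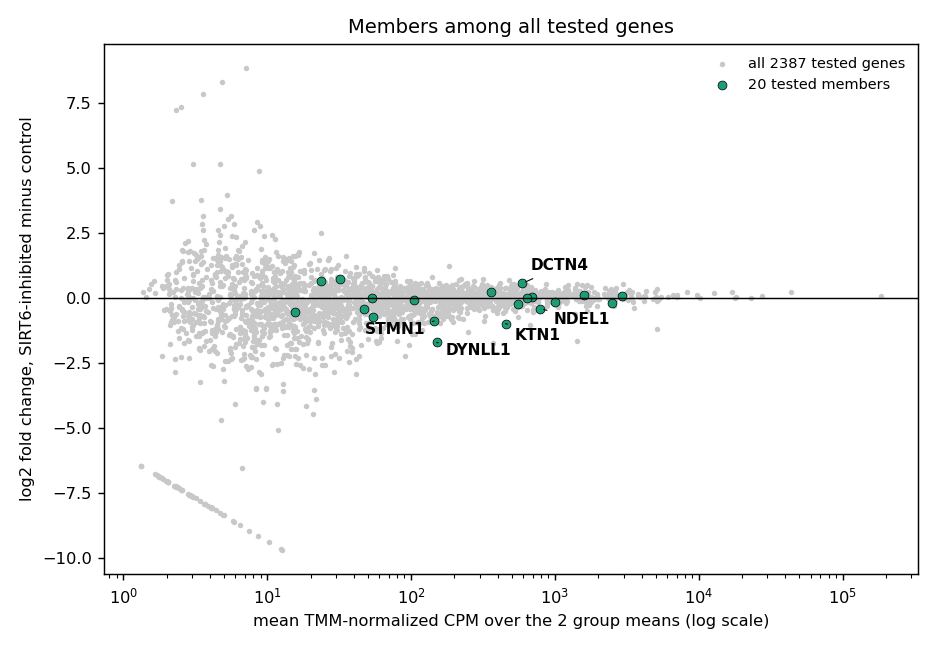
Log2 fold change of all 2387 tested genes (grey) and of the 20 tested members (green) against the mean normalized CPM of the groups, on a log axis. Grey points falling along a line at the lower left are genes with 0 counts in both SIRT6-inhibited libraries, and no member is among them.

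Genes outside the name pattern that act on the same structures were taken from a list of 94 symbols for tubulin modification and folding, spindle assembly, centrosomes and dynein cargo. The table held 16 of them and 15 were tested, of which 11 were lower and 4 higher, with a median log2 fold change of -0.26. Of all tested genes 52.8% were lower, with a median of -0.04. In edgeR's quasi-likelihood test 0 of the 15 had an unadjusted p under 0.05, beside 9.05% of all tested genes. DESeq2's Wald test and limma-voom gave 0 as well, beside 9.93% and 9.68% of all tested genes. ATAT1, the acetyltransferase of alpha tubulin, had 204 and 62 counts in control and 268 and 215 counts in SIRT6-inhibited libraries. Normalized, these were 44.0 and 17.4 against 83.2 and 44.8 CPM, so control library 1 and SIRT6-inhibited library 2 were nearly level and control library 2 was low. The log2 fold change of ATAT1 was 1.05 (SE 0.60, edgeR adjusted p = 0.698), and its unadjusted p was under 0.05 without control library 1 (log2 fold change 1.86) and without SIRT6-inhibited library 2 (1.43). The log2 fold change was smaller, at 0.53 each, and the unadjusted p above 0.05 without control library 2 and without SIRT6-inhibited library 1. SIRT2, a deacetylase of tubulin, had 25 and 25 counts in control and 9 and 11 counts in SIRT6-inhibited libraries (log2 fold change -1.28, SE 1.71). The SIRT2 counts were lower in both SIRT6-inhibited libraries but too few for the difference to exceed its error. AURKA, a spindle pole kinase named here after its values were seen, had 279.9 and 1097 normalized CPM in control and 659 and 175 in SIRT6-inhibited libraries, with overlap and a log2 fold change of -0.73 (SE 0.74). Its unadjusted p was under 0.05 in 3 of 13 other settings, and it passed adjustment in 2 of them, without a filter on low counts and without SIRT6-inhibited library 1. Its log2 fold change was -1.41 and 0.57 without control libraries 1 and 2, and -1.98 and -0.063 without SIRT6-inhibited libraries 1 and 2, so its direction rested on control library 2. HDAC6 was not analysed here. SIRT6 itself had 0 and 42 counts in control against 52 and 57 in SIRT6-inhibited libraries, and since the compound acts on the protein, this level does not check the labels.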

How the data were processed

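The authors deposited raw counts of reads for each gene symbol and library, whole numbers that had not been normalized. The submitters' processing notes name TopHat2 2.0.13, Cufflinks 2.2.1, Cuffnorm, Cuffdiff and the builds susScr11 and mm10, without roles. The counting tool, annotation and strand setting are not given in the sources used here. In R 4.3.3 with edgeR 4.0.16, genes were kept by filterByExpr (minimum count 10, minimum total 15), scaled by TMM factors between 0.966 and 1.04, and compared by a two-sided quasi-likelihood test, with p-values adjusted over all genes tested by the Benjamini-Hochberg method. The SE is the size of the log2 fold change over the square root of F. The fit was tested on simulated data. Positions come from RefSeq (Sscrofa11.1, equal to susScr11). Transcript lengths were not used, so where genes are ordered within a list, the order is that of counts and not of levels per length. Members and lists were chosen with earlier results of these data known. Members named in the text are DYNLL1, DCTN4, NDEL1 and KTN1, those with an unadjusted p under 0.05, those with the largest changes without overlap and the one with most counts in each role; the rest are given by their values. Alternatives covered scaling, filters, the replicate number as a term, DESeq2 1.42.0, limma-voom (limma 3.58.1) and leaving out each library.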

Additional observations from a re-analysis of the deposited data

How the results depend on the processing

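The number of all genes with an unadjusted p under 0.05, 216 in edgeR's test, was between 111 (without control library 2) and 302 (without SIRT6-inhibited library 1) with each library left out in turn. A library left alone in its group was assumed to vary like the other group. The adjusted count, 0 genes, was 43 without a filter on low counts, 2 with at least 10 counts in every library, 6 with the replicate block, 37 in DESeq2's Wald test and 0 to 77 with each library left out. Members with an unadjusted p under 0.05 numbered 3 (beside 9.05% of all genes). They numbered 5 without a filter (8.89%), with at least 10 counts in every library (11.4%), with the replicate block (7.37%) and in limma-voom (9.68%), where NDEL1 and STMN1 joined, and 4 with library totals only (9.30%) and in DESeq2 (9.93%). They numbered 2 with RLE scaling (9.05%), TMM without the 10 most abundant genes (9.13%) and without control library 2 (4.40%), and 4 without each other library (5.80% to 11.7%). Members past adjustment numbered 0, and 2 without a filter (DYNLL1 and KTN1), 1 with the replicate block (KTN1), 2 in DESeq2 (DCTN4 and KTN1) and 0 to 2 with each library left out. The block changed no other adjusted call of a member, but with it, and with crossed numbers, the oocyte marker GDF9 passed adjustment. The cause of these moves was not tested.

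The sources do not say that equal numbers pair libraries, and deviations of same-numbered libraries had a correlation of -0.117. Crossing the numbers in the block, chosen after seeing the data, gave 2 genes past adjustment, 241 at an unadjusted p under 0.05, and 0 and 4 members.

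Over 13 alternatives for each of the 20 tested members, 218 of 260 values kept their direction and side of the threshold, 15 newly had an unadjusted p under 0.05, 4 no longer did and 23 changed sign. For KIF2A the value was -0.053 with library totals only, -0.00028 with the 10 most abundant genes left out of TMM, -3.3e-05 without a filter, -0.0067 with the replicate block, -0.027 in limma-voom and -0.0072 with crossed numbers. For TUBB it was -0.038 with library totals only, -0.00088 with the block, -0.044 in limma-voom and -0.0017 with crossed numbers, and for TUBA1A it was -0.023 with library totals only. With each library left out, the ranges were -0.39 to 0.31 for DCTN6, -0.19 to 0.17 for KIF2A, -1.19 to 0.75 for MAP1S, -0.014 to 0.15 for MAPRE1, -0.75 to 0.022 for PAFAH1B1, -0.12 to 0.17 for TUBA1A, -0.0071 to 0.21 for TUBA1B and -0.25 to 0.24 for TUBB. For AURKA, outside the members, that range was -1.98 to 0.57. DYNLL1, with an unadjusted p of 0.0499, kept its fold change but moved just past the threshold with RLE scaling (-1.67, unadjusted p 0.0507), library totals only (-1.77, 0.0539) and TMM without the 10 most abundant genes (-1.70, 0.0504), while without control library 2 its fold change also shrank (-0.46). The median over the same 20 members was between -0.18 and 0.00069 with each library left out and between -0.17 and -0.09 elsewhere. TUBB1, TACC2 and DYNLRB1, which some of these fits also tested, have their counts mainly in control library 2 and are not in that median. The median of all genes was between -0.10 and 0.02 over the alternatives.

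With 2 libraries a group and a common biological coefficient of variation of 0.651, genes of few counts (MAP1S, KIF22, CKAP4 and SIRT2) had SEs from 0.64 to 1.71 on the log2 scale, and differences of that size were not detectable for them. The table lists part of the gene catalogue, and near-identical tubulin copies and overlapping genes share reads in ways the counts do not show.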
